A study of Homo sapiens with 54 samples.

Results

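Of 3048 Maf1 regions on chromosomes 1 to 22 and X in T47D cells given vehicle, 2789 (91.5%) shared at least 1 bp with a Maf1 region of cells given the progestin R5020. These 2789 retained Maf1 regions are described here. They lay over 2617 of the 22638 R5020 Maf1 regions, or 11.6% of that list. The other 259 vehicle regions are called vehicle-only, and the 20021 R5020 regions over no vehicle region are called R5020-only. The members were chosen by the overlap of the 2 Maf1 lists themselves, so Maf1 folds, the distance between their 2 Maf1 summits and the retained share describe the choice and were not tested.

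T47D is a human breast cancer cell line that expresses the progesterone receptor (PR). Cells received either ethanol, the vehicle, or R5020, a synthetic progestin, for 1 h, and binding was measured by ChIP-seq, in which antibody-bound chromatin is sequenced. The 8 antibodies were against PR, the histone mark H3K27Ac, Maf1, Brf1, and 4 subunits of RNA polymerase III (POLR3A, POLR3C, POLR3G, POLR3GL). Each antibody and treatment has 3 libraries in the labels and 1 deposited peak list, so no value below has an error between replicates and the sequencing depth behind a list is unknown. Intervals given below cover the counting error of regions only, and neighbouring regions are not independent. All cells of both groups are of this 1 line, with no genetic change named in the labels. For POLR3C, POLR3G and POLR3GL, 4 libraries have R5020 in the title and ethanol as the tagged treatment, and values for those 3 subunits follow the titles. As a check of the cell type, all 10 listed luminal genes, among them PGR, GATA3, FOXA1 and KRT8, had H3K27Ac within 1 kb of a gene end in both lists. The basal keratin genes KRT5 and KRT14 had none, while TP63, ACTA2 and EGFR of the basal and mesenchymal list had at least 1 region in both lists and VIM had 1 with R5020 only.

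Maf1 is a repressor of RNA polymerase III, the enzyme that makes tRNAs, 5S ribosomal RNA, U6 and 7SK RNA. It binds the polymerase and interferes with its recruitment by Brf1, a subunit of the initiation factor TFIIIB. Maf1 has also been described at polymerase II promoters. The small nuclear RNAs (snRNAs) U1, U2, U4 and U5 of the spliceosome are made by polymerase II from short promoters that share the SNAPc factor with the polymerase III genes for U6 and 7SK. PR is a hormone-activated transcription factor that binds progesterone response elements, and H3K27Ac marks active promoters and enhancers.

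The promoter sequences below are shown because they belong to members that stand for 3 kinds of retained region. They are RefSeq promoters of GRCh38.p14, from 250 bases before to 50 after the annotated start, on the strand of the gene. SF3B6 and FAM228B start on opposite strands within the retained region of highest -log10 q, chr2:24075886-24077424. The POLR3E promoter overlaps the tRNA gene TRL-AAG2-4 and its region had the highest vehicle POLR3A value among retained regions. The DYNLL1 promoter had the highest vehicle Maf1 value among retained regions with PR in neither list. Capitals mark matches, on either strand, to 15 short motifs searched, here GGGCGGG (SP/KLF), CCGGAAG (ETS), CCAAT (NFY), CACGTG (E-box), AANATGGC (YY1) and GGTTCGA (the polymerase III B box).
SF3B6, chr2:24076277-24076576, minus strand: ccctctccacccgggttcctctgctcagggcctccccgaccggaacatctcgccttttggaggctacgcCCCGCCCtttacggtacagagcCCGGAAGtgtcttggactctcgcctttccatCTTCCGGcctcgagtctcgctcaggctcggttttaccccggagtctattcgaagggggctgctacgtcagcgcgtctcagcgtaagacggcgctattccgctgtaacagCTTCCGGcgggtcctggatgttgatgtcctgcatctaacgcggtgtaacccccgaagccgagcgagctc
FAM228B, chr2:24076583-24076882, plus strand: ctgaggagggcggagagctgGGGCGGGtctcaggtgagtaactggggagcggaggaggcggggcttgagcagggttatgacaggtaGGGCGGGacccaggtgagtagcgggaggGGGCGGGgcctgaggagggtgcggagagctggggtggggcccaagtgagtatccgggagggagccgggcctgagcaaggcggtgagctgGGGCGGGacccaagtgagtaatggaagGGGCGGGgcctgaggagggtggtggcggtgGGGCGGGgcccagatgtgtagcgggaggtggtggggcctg
POLR3E, chr16:22297159-22297458, plus strand: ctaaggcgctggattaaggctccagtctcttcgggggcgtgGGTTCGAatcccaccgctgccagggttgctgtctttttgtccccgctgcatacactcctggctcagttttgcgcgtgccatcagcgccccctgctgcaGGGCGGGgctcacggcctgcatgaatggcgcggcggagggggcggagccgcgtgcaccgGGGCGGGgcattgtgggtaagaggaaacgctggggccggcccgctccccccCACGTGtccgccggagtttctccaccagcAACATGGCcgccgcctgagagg
DYNLL1, chr12:120495863-120496162, plus strand: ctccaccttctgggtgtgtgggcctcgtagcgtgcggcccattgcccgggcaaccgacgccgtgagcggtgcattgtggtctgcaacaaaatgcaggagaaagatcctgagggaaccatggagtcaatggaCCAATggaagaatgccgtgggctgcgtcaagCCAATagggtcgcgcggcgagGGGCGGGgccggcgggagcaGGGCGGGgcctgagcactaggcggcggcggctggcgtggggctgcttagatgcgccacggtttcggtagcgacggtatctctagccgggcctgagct
The FAM228B window held 6 SP/KLF matches and the SF3B6 window 3 ETS matches. In the POLR3E window the B box, an internal promoter element of tRNA genes, lay at bases 42 to 48 and inside TRL-AAG2-4.

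The retained regions were mostly short. Their median width was 277 bp (range 152 to 18417), their median authors' fold over background 3.91 (1.31 to 33.9) and their median -log10 q 6.13 (1.34 to 229). For vehicle-only regions these medians were 194 bp, 3.59 and 4.33. The vehicle and R5020 summits of a retained region lay a median 57 bp apart, and within 100 bp of each other in 65.4% of cases. Shared sequence was the rule of choice and by itself favours near summits. A 1-to-1 pairing was found for 2388 members, 169 R5020 regions held 2 or more members, and 50.2% of members shared 50% or more of both regions. At the edge of the rule, members at LINC00482, CRACR2B and KIAA1217 shared 4, 6 and 9 bp with an R5020 region, and vehicle-only regions at ARID1B and YIF1B missed one by 3 and 4 bp. The values of these edge regions were alike, with vehicle folds of 3.32 to 4.06 inside and 3.49 to 4.06 outside.

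PR was found in vehicle-treated cells at many of the retained regions. Vehicle PR overlapped 1539 of them, or 55.2% (53.3 to 57), against a background of 20.1% over all 23069 Maf1 regions of either list. The share was 32.4% at vehicle-only regions and 15% at R5020-only regions, a difference of 40.2 percentage points from the latter (95% Newcombe interval 38.3 to 42.1). Among all vehicle H3K27Ac regions 6.06% had vehicle PR. With R5020, PR was found at 80.4% of retained regions (78.9 to 81.9; background 81.6%), at 42.1% of vehicle-only regions and at 82.2% of R5020-only regions. The retained regions exceeded the vehicle-only ones by 38.3 points (32.1 to 44.4). The R5020 PR list holds 173115 regions and the vehicle list 6662. Against only the 6662 R5020 PR regions of highest -log10 q, the share of retained regions was 12.9%. With 50% of both regions shared, vehicle PR was at 31.2% and R5020 PR at 21.8% of retained regions, and counting only PR regions with a -log10 q of 5 or more, vehicle PR was at 42.2%.

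**Figure D1:**
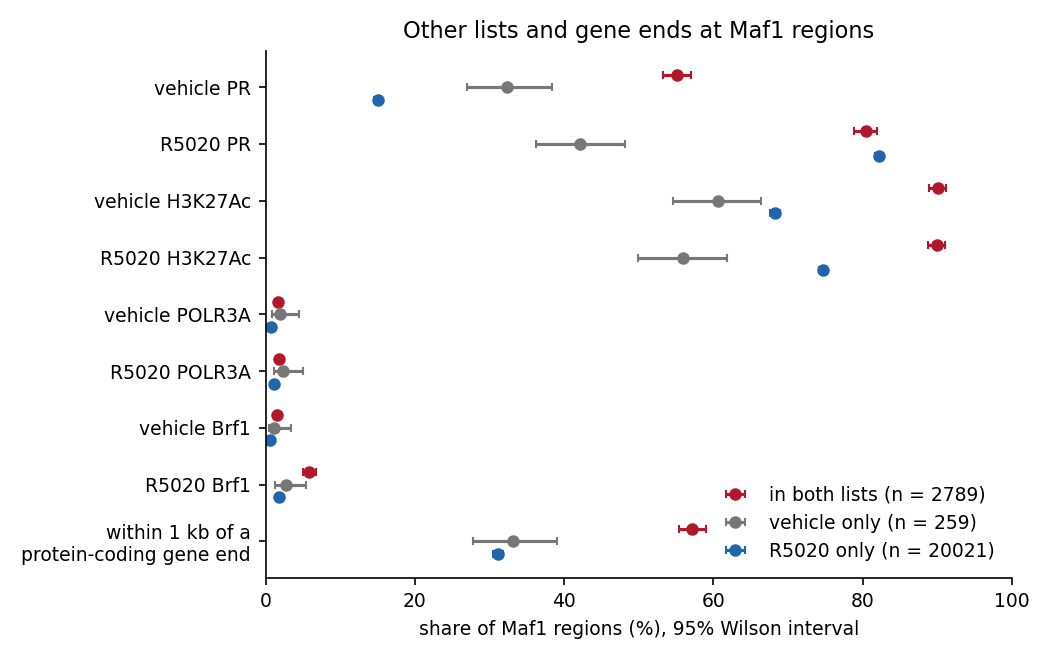
Share of Maf1 regions (x axis, %) that overlap each list or lie near a protein-coding gene end (y axis), for regions in both Maf1 lists, in the vehicle list only and in the R5020 list only, with 95% Wilson intervals. Vehicle PR was at 55.2%, 32.4% and 15% of these 3 sets, and vehicle H3K27Ac at 90.1%, 60.6% and 68.3%.

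By PR status, 1486 retained regions (53.3%) had PR in both lists, 757 (27.1%) only with R5020, 53 (1.9%) only with vehicle and 493 (17.7%) in neither. Regions with PR in neither list were acetylated less often, 65.5% having vehicle H3K27Ac against 96.9% of those with PR in both lists. The 53 regions with PR only in the vehicle list included 15 (28.3%) with vehicle POLR3A and 17 (32.1%) with R5020 Brf1, against 0.875% and 7.6% of those with PR in both lists. Of these 15, the region at the tRNA gene TRT-CGT4-1 had a POLR3A fold of 46.5. An R5020 PR region with a fold of 7.45 lay within 200 bp of that gene, though not over the member. The others had POLR3A folds of 1.44 to 8.1. Those others included ribosomal RNA genes and DUX4-like repeats, which are multicopy, so the placement of reads there is uncertain. The 5 retained regions with the highest vehicle PR lay near CYP2B7P, near LOC100505782, in RARA, near SPINK4 and near MIR4472-2. RARA encodes a retinoic acid receptor. There the PR fold was 49.1 with vehicle and 42.2 with R5020, and the Maf1 fold was 8.21 and 7.9. Near CYP2B7P the PR fold was 57.4 and 56.6 and the Maf1 fold 21.7 and 29.4. None of these 5 regions had POLR3A or Brf1 in any list, and few members did. With vehicle and R5020, POLR3A was at 1.61% and 1.79% of all members and Brf1 at 1.51% and 5.84%.

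The vehicle PR share was higher at stronger Maf1 regions, by the authors' -log10 q of the vehicle region. In 5 equal bins from low to high Maf1 -log10 q it was 42%, 48.6%, 52.5%, 60.6% and 72.2%. Wider regions overlap more by size alone, but within 200 bp centred on the Maf1 summit the share still ran from 40.6% to 70.6%. R5020 PR ran from 74.3% to 86.7% and R5020 Brf1 from 3.77% to 8.24%, while vehicle H3K27Ac stayed between 88.7% and 91.8%. The differences from vehicle-only regions were also present at like Maf1 strength. In the lowest of 3 bins cut from the vehicle-only regions, with -log10 q of 1.44 to 3.55, R5020 PR was at 73.8% of retained and 31.8% of vehicle-only regions (difference 42 points, 30.8 to 51.6). In the highest bin it was at 83.1% and 50% (33.1 points, 22.6 to 43.6).

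**Figure D2:**
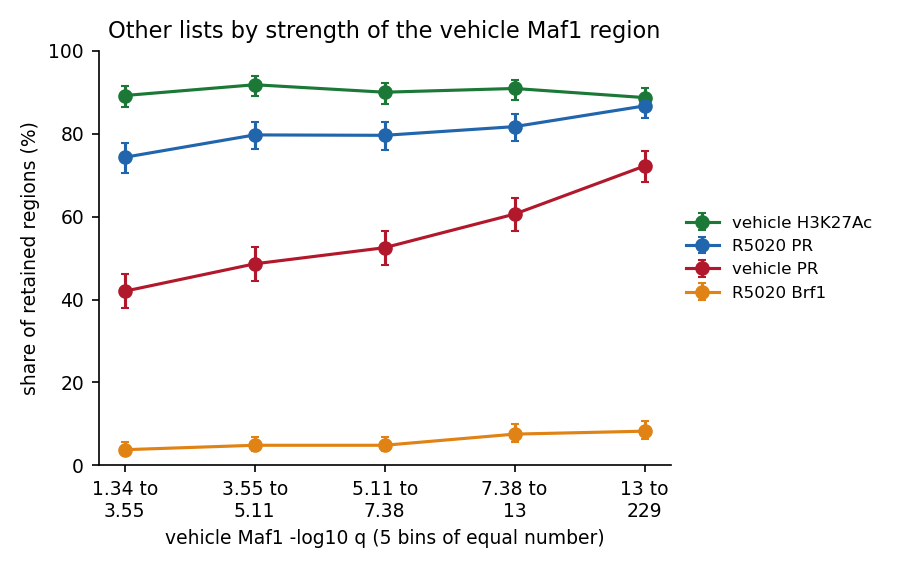
Share of retained Maf1 regions (y axis, %) that overlap 4 other lists, in 5 bins of equal number by vehicle Maf1 -log10 q (x axis), with 95% Wilson intervals. Vehicle PR runs from 42% in the weakest bin to 72.2% in the strongest, while vehicle H3K27Ac is about level.

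The R5020 PR regions at retained Maf1 regions ranked far below those at R5020-only Maf1 regions. Within the R5020 PR list, the median fold percentile was 58 (95% order-statistic interval 55.5 to 60.7) for the 2243 PR regions over a retained Maf1 region. It was 93.8 (93.6 to 93.9) for the 15284 over an R5020-only region and 47.2 for the 155370 with no Maf1. Their median folds were 6.91, 28.8 and 5.61. Members with vehicle PR lay under R5020 PR regions of a median percentile of 67.4 (63.2 to 70.2), and those without vehicle PR under regions of 41.9 (38.1 to 47.2). In the vehicle PR list the sets were closer, with median percentiles of 56.2 (54 to 59.6) at retained, 48.7 (46.7 to 50.6) at R5020-only and 47.6 (44.8 to 50.6) for PR regions with no Maf1. The 77 vehicle PR regions over a vehicle-only Maf1 region ranked highest, at 88.1 (77.3 to 95.1). The strongest vehicle-only region, in ITPK1, an inositol phosphate kinase gene, had a Maf1 fold of 9.8 and PR folds of 33.9 with vehicle and 3.97 with R5020.

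The distance between Maf1 and PR summits also differed between the sets. At retained regions the Maf1 summit lay a median 54 bp (49 to 57) from the vehicle PR summit and 132 bp (120 to 141) from the R5020 PR summit. At R5020-only regions the median to the R5020 PR summit was 36 bp (35 to 37). Measured from the R5020 Maf1 summit over the member, so that both sets came from 1 Maf1 list, the median was 91.5 bp (84 to 101). PR regions were wide, with a median of 779 bp over retained regions and 752 bp over R5020-only regions. Counting only R5020 PR regions of at most 1000 bp left medians of 93 bp and 34 bp. The same limit lowered the fold percentile at retained regions to 40.4 and left that at R5020-only regions at 94.1.

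**Figure D3:**
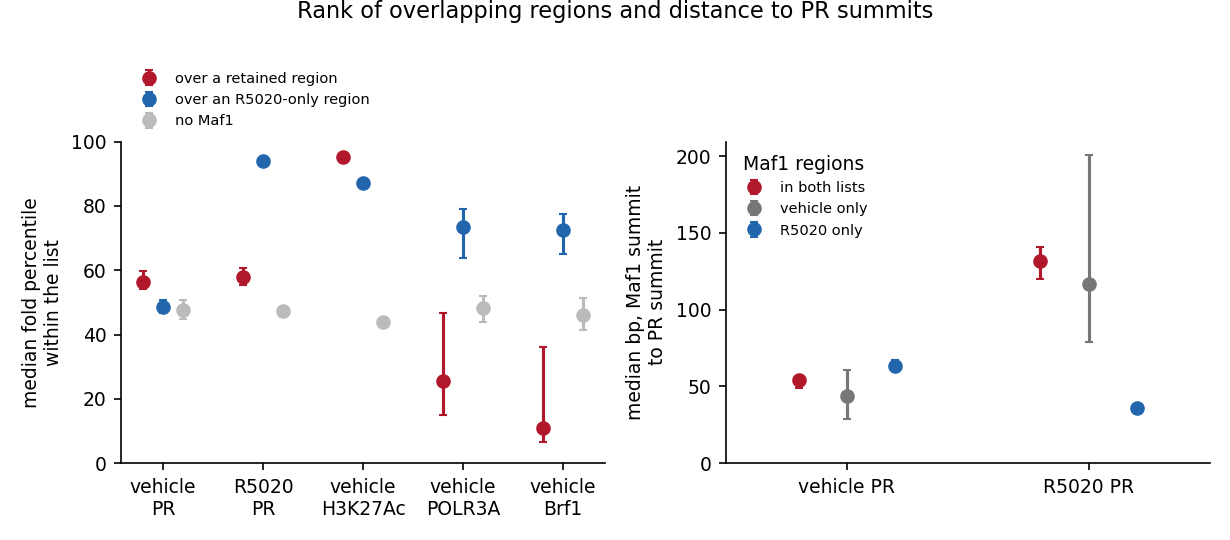
Left, median fold percentile (y axis) of regions of 5 lists (x axis) within their own list, by the Maf1 region they overlap. Right, median distance in bp (y axis) from the Maf1 summit to the summit of overlapping vehicle or R5020 PR regions (x axis), by Maf1 set. Bars are 95% order-statistic intervals of the median. R5020 PR regions over retained Maf1 regions sit at the 58th percentile and those over R5020-only regions at 93.8, and the summit distances are 132 and 36 bp.

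Most retained regions lay in strongly acetylated chromatin. Vehicle H3K27Ac was at 90.1% (88.9 to 91.2; background 70.8%), 21.9 points above R5020-only regions (20.5 to 23.1) and 29.5 points above vehicle-only regions (23.6 to 35.6). With R5020 the share was 90% (background 76.3%). In 2463 members H3K27Ac was in both lists, in 50 only with vehicle, in 46 only with R5020 and in 230 (8.25%) in neither. Vehicle H3K27Ac regions that held a member had a median fold percentile of 95.3 and a median width of 2938 bp. Those over R5020-only Maf1 regions were at 87.1 and 1842 bp, and those without Maf1 at 43.9. Under a 50% overlap of both regions the H3K27Ac differences changed sign, to -0.944 points against R5020-only and -0.687 points against vehicle-only regions, with shares of at most 2.4% at members. Acetylated regions over members are wider than the members, by the medians of 2938 and 277 bp, so few pairs can meet that rule.

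By vehicle -log10 q, the region at SF3B6 and FAM228B was followed by those at NPAS4, TIMM22, SETD1A and, on chromosome 21, near MIR10396A. TIMM22, a gene of mitochondrial protein import, had Maf1 folds of 31.9 with vehicle and 37.3 with R5020 and PR with R5020 alone, at 4.27. SETD1A, a histone H3K4 methyltransferase gene, had Maf1 folds of 30.4 and 33.8 and PR folds of 4.22 and 3.08. The region over RNU1-27P, annotated as a U1 pseudogene, had Maf1 folds of 25.6 and 27.2, PR folds of 22.3 and 17.5 and Brf1 folds of 3.23 and 4.49. None of the 10 strongest members had POLR3A in either list, and 8 of them had vehicle PR. These counts are near the shares of the strongest bin of 558 members, of which 0.717% had vehicle POLR3A, 0.896% R5020 POLR3A and 72.2% vehicle PR. In width, ARHGDIA held the next widest member after the chromosome 21 region, at 5441 bp.

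Some of the strongest members lay outside acetylated chromatin. A set of 152 had neither PR nor H3K27Ac in any list. The 3 strongest without H3K27Ac were at NPAS4, a neuronal activity-dependent transcription factor gene, in VRK3, a kinase gene, and on the short arm of chromosome 21. At NPAS4, chr11:66421519-66422177, the Maf1 fold was 22.4 with vehicle and 27.9 with R5020, PR was found only with R5020, at a fold of 3.72, and POLR3A and Brf1 were found in no list. Among the 5 strongest with PR in neither list, those near NKX1-1, at MIR7-3HG and at IQSEC3 also lacked H3K27Ac, with vehicle Maf1 folds of 17, 15.7 and 10.9. DYNLL1, a dynein light chain gene, and SNRNP35, which encodes a protein of the U11/U12 snRNP, had H3K27Ac in both lists and Maf1 folds of 19.2 and 16.5.

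Retained regions concentrated at the start sites of protein-coding genes. Within 1 kb of a protein-coding gene end lay 1596 of them, 57.2% (55.4 to 59; background 34.3%), against 31.1% of R5020-only, 33.2% of vehicle-only and 20% of vehicle H3K27Ac regions. Either end of a gene counted, so this share is not one of start sites alone. The difference from R5020-only regions was 26.1 points (24.1 to 28). Off chromosome 8, which the promoter table used here does not cover, 49.1% of member summits (47.2 to 51) were within 1 kb of an annotated start, against 26.2% of R5020-only and 24.9% of vehicle-only summits. The 1283 member summits within 1 kb lay just upstream of the start, with a median of -48 bp (quartiles -147 and 40), and 64.7% of them were upstream. All vehicle PR summits within 1 kb of a start had a like position, with a median of -52 bp and 63.6% upstream. For R5020-only summits these values were -11 bp and 53.4%. The vehicle PR difference was present in both places: near gene ends members exceeded R5020-only regions by 32.6 points (30 to 35.2), and farther away by 46.4 points (43.5 to 49.2).

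**Figure D4:**
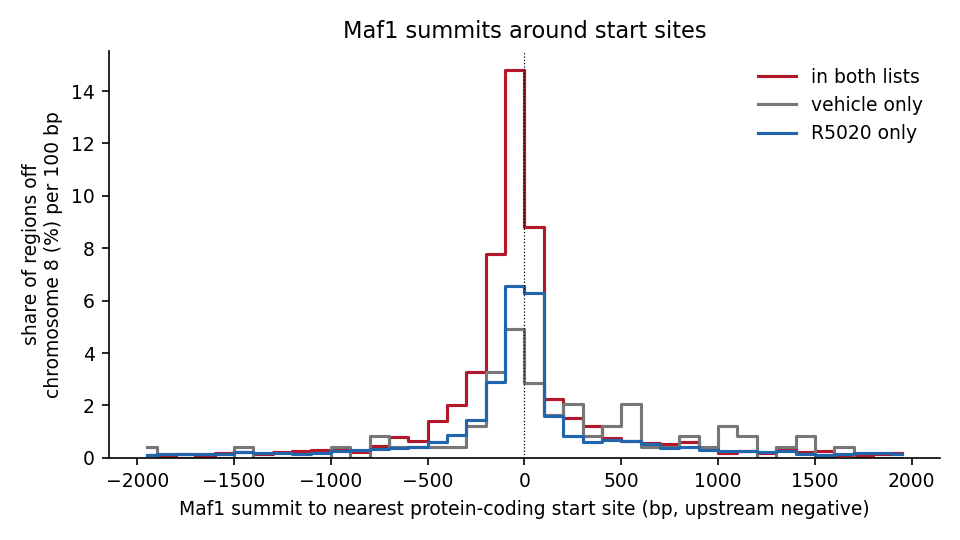
Distance from each Maf1 summit to the nearest protein-coding start site (x axis, bp, upstream negative) as the share of the set per 100 bp (y axis, %), for regions in both Maf1 lists, vehicle only and R5020 only, off chromosome 8. Retained regions peak just upstream of the start, and 23.6% of them lie within 100 bp of it against 12.9% of R5020-only regions.

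Promoters over a member were GC-rich and differed in short motifs from acetylated promoters without Maf1. The 1252 member promoters had a median GC content of 70.3%, against 64.3% for 7762 promoters with vehicle H3K27Ac and no Maf1 region. The SP/KLF letters GGGCGGG were in 66.5% and 49.9% (difference 16.6 points, 13.7 to 19.4), and in 42.3% of all 22012 promoters. Within 4 bins of GC content the SP/KLF shares were 43.2%, 62.2%, 74.8% and 85.2% of member promoters, from low to high GC, and 29.7%, 58.5%, 73.5% and 88.6% of acetylated promoters, so that the sign changed in the richest bin. The letters ACTACAA, part of the site of ZNF143 and THAP11, were in 5.99% of member promoters, 2.49% of acetylated promoters without Maf1 (3.5 points, 2.26 to 4.99) and 2.84% of all. They were in 4.17% of promoters over an R5020-only region (1.82 points, 0.488 to 3.37) and in 11.9% of the 42 over a vehicle-only region. In these 4 bins, from low to high, they were in 11.6%, 6.03%, 4.97% and 1.54% of member promoters and in 3.53%, 1.78%, 1.64% and 0.585% of the acetylated ones. ZNF143 is known as an activator of snRNA gene promoters. The progesterone response element core ACANNNTGT was in 0.958% of member promoters, 2% of promoters over an R5020-only region (difference -1.04 points, -1.64 to -0.24), 2.86% of acetylated promoters without Maf1 and 3.98% of all promoters. CCAAT was in 28.4% of member and 36.2% of acetylated promoters. In the richest GC bin both of these motifs changed order between member and acetylated promoters, with the core in 0.308% and 0.0976% (1 promoter each) and CCAAT in 20% and 18%. Each match is to letters in the 300-base window on either strand and is not evidence of binding.

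The snRNA genes were the list with the highest share of retained regions. Of 17 listed polymerase II snRNA genes, 16 had a retained Maf1 region within 1 kb, where 27.9% of all 154 annotated snRNA genes and 9.01% of 19974 protein-coding genes did. Every one of these 16 regions had its vehicle Maf1 summit inside the snRNA gene. Their -log10 q percentiles in the vehicle Maf1 list ran from 81.6 to 99.1 with a median of 95. At the U1 genes RNU1-1, RNU1-2, RNU1-3 and RNU1-4 the vehicle Maf1 folds were 15.2, 12.5, 12 and 15.9, and the R5020 folds 17, 15.9, 14.8 and 20.9. At the U2 gene RNU2-2 they were 14 and 17.7, and at the U4 gene RNU4-2 12 and 18.2. The U5 genes RNU5A-1, RNU5B-1, RNU5D-1, RNU5E-1 and RNU5F-1 ran from 7.19 to 9.78 with vehicle. The minor-spliceosome genes RNU11, RNU12 and RNU4ATAC had 8.94, 7.01 and 8.86. The lowest of the 16 was RNU4-1 at 6.09 with vehicle and 2.46 with R5020. The only listed gene without a retained region was RNU7-1, the U7 snRNA of histone RNA processing, which had Maf1 only with R5020, at a fold of 4.93.

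The snRNA genes also carried PR before hormone. All 16 members at them overlapped vehicle PR, with folds of 6.28 to 14.9, and 15 overlapped R5020 PR, the exception being the one at RNU4-1. All 16 overlapped H3K27Ac in both lists. Only the one at RNU5B-1 had POLR3A, and it also had Brf1 in both lists. R5020 Brf1 was over 2 of the 16. Within 1 kb of these genes, Brf1 was found at 3 with vehicle and at 4 with R5020. POLR3G was found within 1 kb of all 16 in both lists, where its lists covered 84.3% and 77.5% of all members. Over all Maf1 regions, 43 members (1.54%) overlapped an annotated snRNA gene, against 4 of the 20021 R5020-only and 0 of the 259 vehicle-only regions (background 0.204%). Of the 43 annotated snRNA genes near a member, 10 were U1 variant genes of the RNVU1 group on chromosome 1 and 14 were unnamed snRNA genes on chromosome 17, where the U2 array lies. Such copies are near-identical, so reads there may be placed on the wrong copy and the copies are not independent. The U3 and U8 small nucleolar RNA genes, which polymerase II also transcribes, had members too. SNORD3A, a U3 gene, had Maf1 folds of 14.8 with vehicle and 34 with R5020 and vehicle PR at 13.4. SNORD118, the U8 gene, had Maf1 folds of 6.46 and 8.24 and vehicle PR at 6.95. None of RNU6-1, RNU6-2, RNU6-7, RNU6-8, RNU6-9 and RNU6ATAC, the polymerase III genes for U6 and U6atac, had a retained region, although vehicle POLR3A folds there ran from 32.5 to 57.2. All of these but RNU6-9 had Maf1 with R5020 alone, at folds of 2.6 to 5.38. These U3, U8 and U6 genes were chosen for display after earlier results were seen.

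**Figure D5:**
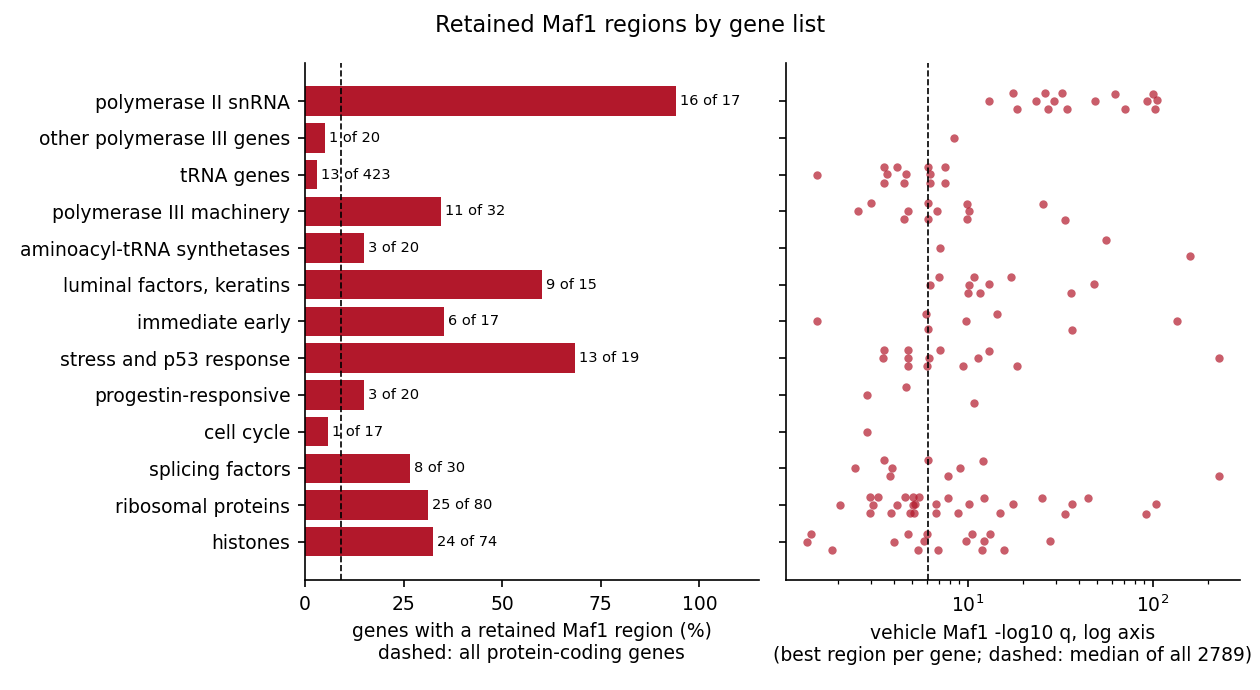
Left, share of the genes of each list (x axis, %) with a retained Maf1 region within 1 kb of a gene end (200 bp for tRNA genes), with the counts; the dashed line is the 9.01% of all protein-coding genes. Right, vehicle Maf1 -log10 q of the best retained region per gene (x axis, log scale), with the median of all 2789 dashed. The polymerase II snRNA genes, 16 of 17, lie to the right of the median.

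Polymerase III targets themselves were rare among the retained regions. Vehicle POLR3A was at 45 members, 1.61% (1.21 to 2.15; background 0.837%), and vehicle Brf1 at 42, 1.51% (1.12 to 2.03; background 0.689%). These shares exceeded those of R5020-only regions by 0.899 (0.475 to 1.45) and 0.937 points (0.53 to 1.47). Within 1 kb of a protein-coding gene end the POLR3A difference was -0.0457 points (-0.396 to 0.485), and against vehicle-only regions in all places it was -0.317 points (-2.86 to 0.911). With R5020, POLR3A was at 1.79% (background 1.17%) and Brf1 at 5.84% (5.03 to 6.78; background 2.29%). Brf1 was in both lists at 40 members, only with R5020 at 123 and only with vehicle at 2. Of the 123, 82.1% had vehicle PR and 13% vehicle POLR3A. The R5020 Brf1 list is longer than the vehicle list, and against as many of its top regions as the vehicle list holds the R5020 share was 0.861%. The POLR3A regions over members were weak for their list, at a median fold percentile of 25.5 (15.1 to 46.6) against 73.5 (63.9 to 79.1) for those over R5020-only Maf1 regions.

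The 60 members with POLR3A in either list were a mixed set. The 12 within 200 bp of a tRNA gene had vehicle POLR3A folds of 35.6 to 58 and vehicle Maf1 folds of 2.78 to 4.42. A further 18 were at the 45S ribosomal RNA genes or next to them on the short arm of chromosome 21, with vehicle POLR3A folds of 3.17 to 6.11 where it was present. The 3 at 5S ribosomal RNA genes had POLR3A folds of 7.87 to 9.4 and Maf1 folds of 1.81 to 2.19. The DUX4-like repeats (6 members) and the REXO1L cluster of chromosome 8 (9 members) had Maf1 folds of at most 3.13. The ribosomal RNA genes, the repeats and the tRNA gene families have several copies, so the placement of reads there is uncertain. The widest member of all, chr21:8989237-9007653 on the same short arm, nearest to MIR10396A, was 18417 bp wide, with Maf1 folds of 23.8 and 32.1, PR folds of 22.8 and 30.3 and no POLR3A.

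Of 423 nuclear tRNA genes, 13 (3.07%) had a retained region within 200 bp and 79 had an R5020-only region. The R5020-only set is the larger, and as shares of regions the sets were near equal. A tRNA gene lay within 200 bp of 12 of 2789 members (0.43%) and of 75 of 20021 R5020-only regions (0.375%). TRL-AAG2-4, at the POLR3E promoter printed above, had POLR3A folds of 58 with vehicle and 71.4 with R5020 and Brf1 folds of 51.5 and 81.3. Its Maf1 folds were 4.42 and 5.92, and PR was found there only with R5020, at 21.7. TRA-TGC4-1 had Maf1 folds of 3.66 and 7.09 and PR only with R5020, at 44.4. The region beside TRQ-CTG1-4, at the RAB11A promoter, had no PR in either list. At 11 of the 13 genes PR was found within 200 bp with R5020, and at 5 with vehicle. Among 20 other polymerase III genes, RN7SK, the gene for 7SK RNA, was the only one with a retained region, with Maf1 folds of 4.54 and 5.67 and POLR3A folds of 49.8 and 60.3. Near all annotated tRNA genes (within 1 kb), 4.06% had a member.

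POLR3G, a subunit with a paralog, POLR3GL, that replaces it in many tissues, gave another picture. Its vehicle list covered 84.3% of the members (background 47.3%) and its R5020 list 77.5% (background 46.4%). With only POLR3G regions of -log10 q of at least 5 these shares were 69.3% and 55.6%, and with 50% of both regions shared 11.7% and 15.8%. Vehicle POLR3C and POLR3GL were at 3.73% (background 1.48%) and 0.968% (background 0.303%), and their R5020 lists at 3.51% (background 1.48%) and 0.753% (background 0.329%). The POLR3G list also covered 26.1% of all vehicle H3K27Ac regions, and its median fold over members was 3.81. The label conflict named above touches the R5020 values of these 3 subunits.

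Among the genes of the polymerase III machinery, 11 of 32 (34.4%) had a retained region within 1 kb of an end, against 9.01% of all protein-coding genes. BRF1 had 2 in its span only. R5020-only regions lay near an end of 13 of the 32, against 29.8% of all protein-coding genes. By -log10 q the 5 strongest retained regions were at SNAPC5, BRF1, MAF1, CRCP and POLR3F. SNAPC5, a subunit gene of the snRNA activating complex, had Maf1 folds of 8.79 with vehicle and 14 with R5020, in a region shared with RPL4. BRF1, the TFIIIB subunit gene, had 6.38 and 11.6. At the MAF1 gene itself the Maf1 folds were 4.01 and 7.86, with PR and H3K27Ac in both lists. CRCP and POLR3F, 2 polymerase subunit genes, had 4.54 and 5.37, and 4.33 and 4.69. Of the 12 best regions, 3 had vehicle PR and 10 R5020 PR, against 55.2% and 80.4% of all members. FASN, the fatty acid synthase gene, a polymerase II gene named in earlier work as a Maf1 target, had a retained region with Maf1 folds of 4.44 and 5.61 and PR in both lists, and ACACA and TBP, named likewise, had none.

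A member lay near an end of 9 of 15 luminal transcription factor and keratin genes, or 60%, against 9.01% of all protein-coding genes. R5020-only regions lay near 10 of the 15, against 29.8% of all protein-coding genes. At XBP1, a transcription factor gene of the unfolded protein response, the Maf1 folds were 11 and 17.2, at GATA3 8.23 and 6.49, at KRT19 6.49 and 5.53 and at FOXA1 5.13 and 9.01. The best regions at XBP1, KRT19 and FOXA1 overlapped no protein-coding promoter window, and the one at GATA3 did. Those at GATA3 and KRT19 lay farther than 1 kb from any protein-coding gene end, so they are not the ones counted near an end. GATA3 held 4 members, 1 of them, with a fold of 5.16, 4536 bp wide. PR was in the vehicle list at 9 of the 10 best regions, against 55.2% of all members. These 10 were the strongest region of each gene, with a median -log10 q percentile of 77.4. At stronger members the vehicle PR share was also higher, at 60.6% in the next-to-strongest and 72.2% in the strongest bin. Of 19 stress and p53 response genes 13 (68.4%) had a member near an end and 9 an R5020-only region. Among the 13 were TP53I3, a p53 target that lies beside SF3B6 and shares its region, GADD45B at 6.25 and 6.82, and DDIT4 at 5.71 and 4.62. The best regions at GADD45B and DDIT4 overlapped no promoter window. HSPA5, the endoplasmic reticulum chaperone gene, had 2 members near an end. The best of them had 5.2 and 7.41 with neither PR nor H3K27Ac over it, and it too overlapped no promoter window. Of 17 immediate early genes 6 (35.3%) had a member near an end, all with PR in both lists, and 10 had an R5020-only region. Among the 6, IER3 was the strongest at 19.4 and 25.7, and JUNB had 8.59 and 5.02. The best region at JUNB overlapped no promoter window, while that at IER3 did.

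Of 20 progestin-responsive genes, FKBP5, CCND1 and PGR, or 15%, had a retained region near an end, against 9.01% of all protein-coding genes. An R5020-only region lay near an end of 9 of the 20, against 29.8% of all protein-coding genes. At FKBP5, which encodes a steroid receptor cochaperone, the Maf1 folds were 3.34 with vehicle and 27.4 with R5020. CCND1, the cyclin D1 gene, had 3.02 and 7.78. PGR, the gene of PR, had 5.32 and 9.25 at its best region. That PGR region lay farther than 1 kb from any protein-coding gene end, so it is not the one counted near an end. None of these best regions overlapped a promoter window, and the windows used here cover 79.2% of protein-coding genes. CCND1 was also the only one of 17 cell cycle regulators with a retained region near an end. Of 20 aminoacyl-tRNA synthetase genes, whose enzymes charge tRNAs, GARS1 had 19.7 and 27.5, AARS1 10.3 and 16.8 and MARS1 4.04 and 2.53, and 13 of the 20 had an R5020-only region.

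Shares above the 9.01% of all protein-coding genes were also found for ribosomal protein, histone and splicing factor genes. Of 80 cytosolic ribosomal protein genes 25 had a member near an end, among them RPL41 at a vehicle fold of 16.2, RPS18 at 15 and RPL13 at 8.03, and 10 of their 28 best regions had vehicle PR. Of 74 histone genes 24 had one, over 16 distinct regions, among them H4C12 at 8.91. That list was made by symbol prefix and is not limited to replication-dependent genes. Of 30 splicing factor genes 8 had one, led by SF3B6, whose region (the strongest of all) had Maf1 folds of 33.9 and 44.2, vehicle PR at 9.49 and R5020 PR at 37. R5020-only regions lay near 54, 33 and 15 genes of these 3 lists and near 29.8% of all protein-coding genes.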

How the data were processed

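ChIP-seq of T47D cells was deposited as 1 peak list for each of 8 antibodies and 2 treatments, 16 lists in all, each for 3 libraries. The submitters' processing notes name cutadapt, Bowtie2, MACS2 and hg38, without roles or versions. How replicates were combined, the control and the filters are not given in the sources used here. Each deposited list holds the authors' fold over background (a ratio) and the authors' -log10 q per region, in the narrowPeak layout. The labels' 6 input libraries were not used here.

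Regions on chromosomes 1 to 22 and X were kept, which left out 51 of 3099 vehicle and 253 of 22891 R5020 Maf1 regions. Overlap meant at least 1 bp. Shares carry 95% Wilson intervals, differences Newcombe intervals and medians order-statistic intervals, computed in Python 3.11.15 with numpy 2.4.6, pandas 2.3.3 and scipy 1.17.1. Figures used matplotlib 3.10.9. The overlap code was tested on simulated data. Percentiles rank a region's value within its own list. With 1 list per group no test between treatments was run.

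Gene positions and promoters came from RefSeq tables of GRCh38.p14. The promoter table covers 79.2% of 19974 protein-coding genes and none on chromosome 8. Members, gene lists and motifs were chosen with earlier results of these data known. Regions were named by rank: the 10 of highest vehicle Maf1 -log10 q, the 3 widest, the 5 highest in vehicle POLR3A, in vehicle PR and among those without PR, the 3 strongest without H3K27Ac, the 3 nearest to the rule on either side, the 3 strongest vehicle-only regions, and listed genes with a member within 1 kb (the 5 strongest for lists over 20 genes). Alternatives were a -log10 q minimum of 5, 50% of both regions, a 200 bp summit window, lists of equal number and a gene distance of 5 kb. A few items that this rule names are not reported here.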

Additional observations from a re-analysis of the deposited data

How the results depend on the processing

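No paired analysis was possible because the lists carry no replicate numbers, and for the same reason no replicate could be left out. With only regions of -log10 q of at least 5 in the other lists, the shares of retained regions were 42.2% for vehicle PR, 73.7% for R5020 PR, 88.2% and 88.1% for vehicle and R5020 H3K27Ac, and 0.896% and 4.27% for vehicle and R5020 Brf1. With 50% of both regions shared they were 31.2% and 21.8% for PR, 2.4% and 2.37% for H3K27Ac, 0.538% and 0.574% for POLR3A and 0.466% and 3.08% for Brf1. The vehicle H3K27Ac difference then reversed, to -0.687 points against vehicle-only and -0.944 points against R5020-only regions. Within 200 bp centred on the Maf1 summit the H3K27Ac shares were 88.8% and 88.5%. With R5020 lists trimmed to the number of regions in the vehicle list, R5020 PR was at 12.9%, POLR3A at 1.11% and Brf1 at 0.861%. The share near a gene end was 71.7% at 5 kb and 59.7% for members sharing 50% of both Maf1 regions. Of 17 alternatives for the differences between sets, 15 kept the sign with an interval that left out 0.

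The following alternatives were chosen after seeing the data. Protein-coding genes with a member numbered 1154 for vehicle Maf1 regions of -log10 q of at least 5 and 1053 for 50% of both Maf1 regions, from 1800, and tRNA genes within 1 kb numbered 5 and 8, from 18. The 16 listed snRNA genes with a member numbered 16 under both. Ranked by -log10 q, the R5020 PR percentile was 60.8 at members and 94.6 at R5020-only regions. With PR regions of at most 1000 bp these were 40.4 and 94.1, and the median summit distances 93 and 34 bp. From the R5020 Maf1 summit the distance at members was 91.5 bp. The depth of the libraries was unknown, so its effect on the lists was not tested.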

Other observations

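Retained regions were spread unevenly over the chromosomes: 8.35% lay on chromosome 19, where 6.2% of vehicle H3K27Ac regions lie, and 6.42% on chromosome 16, against 4.57%. Another member lay within 10 kb of 993 of them (35.6%). Annotated miRNA genes were overlapped by 25 members (0.896%), against 0.225% of R5020-only and 0.386% of vehicle-only regions. No annotated gene was overlapped by 573 members (20.5%), a lower share than the 24.5% of R5020-only and 37.5% of vehicle-only regions.

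Of the limits, the main one is that each treatment has 1 list per antibody, so the spread between the 3 libraries of a group is unknown. The authors' folds and -log10 q values rank regions within a list and do not measure change between lists. Joint presence of PR, H3K27Ac and Maf1 in 1 cell was not measured.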
